A study of Mus musculus with 20 samples.

Results

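The 36 genes described here are interferon-stimulated genes and components of the type I interferon pathway, measured in hippocampal RNA of tau transgenic mice and their controls. They were taken by name, as a list of pathway genes, from the 24513 gene rows of the count tables, and all 36 had counts. The study compared 4 genotypes of 9-month-old male mice, each labelled strain C57BL/6J and each with 5 libraries of polyadenylated RNA: PS19/C3aR KO, PS19, C3aR KO and WT. The PS19 line expresses human P301S tau, a mutant form found in inherited frontotemporal dementia, from a transgene under the prion protein promoter of the mouse, which is active mainly in neurons of the central nervous system. C3aR KO is the submitters' label for mice lacking C3aR, the receptor for the complement fragment C3a, encoded by C3ar1, and PS19/C3aR KO mice are labelled as carrying both alterations. The tau transgene is thus shared by PS19/C3aR KO and PS19 mice, and the C3aR KO label by PS19/C3aR KO and C3aR KO mice. Separate animals for the libraries are not stated in the labels, which also name no extraction batch. Each p-value therefore reflects how far these libraries vary, and some of that variation may be technical.

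Type I interferons, the alpha and beta interferons, are secreted when nucleic acid sensors or Toll-like receptors are engaged. They bind a receptor made of IFNAR1 and IFNAR2, and the kinases attached to it phosphorylate STAT2. STAT2 and IRF9 are subunits of the complex ISGF3, which binds the interferon-stimulated response element (ISRE) in the promoters of many antiviral genes. In the brain, microglia are a well-known site of this response, and interferon-stimulated genes have been described in mouse models of amyloid and tau pathology.

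Promoter sequences are shown for the receptor gene Ifnar1 and for Isg15, Ifit1, Ifit3 and Ifitm3, whose levels are given further on, because the ISRE is the element through which the pathway acts on its targets. Each sequence is from RefSeq on GRCm38.p6, runs 5′ to 3′ on the strand of the gene from 250 bases before the start to 50 bases from it, and has ISRE matches in capitals. The motif searched was 2 copies of GAAA spaced by 2 bases of any kind, on both strands, so that a match on the other strand reads TTTC in place of GAAA, and neighbouring matches may overlap. The regions are chr4:156200769-156201068, minus strand for Isg15, chr19:34640639-34640938, plus strand for Ifit1, chr19:34583279-34583578, plus strand for Ifit3, chr7:141010695-141010994, minus strand for Ifitm3, and chr16:91484965-91485264, plus strand for Ifnar1.
Isg15: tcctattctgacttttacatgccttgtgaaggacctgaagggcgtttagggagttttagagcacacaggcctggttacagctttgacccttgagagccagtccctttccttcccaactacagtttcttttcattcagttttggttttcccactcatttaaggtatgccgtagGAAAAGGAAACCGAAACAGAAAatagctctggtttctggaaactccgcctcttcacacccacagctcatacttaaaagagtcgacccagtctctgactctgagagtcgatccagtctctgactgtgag
Ifit1: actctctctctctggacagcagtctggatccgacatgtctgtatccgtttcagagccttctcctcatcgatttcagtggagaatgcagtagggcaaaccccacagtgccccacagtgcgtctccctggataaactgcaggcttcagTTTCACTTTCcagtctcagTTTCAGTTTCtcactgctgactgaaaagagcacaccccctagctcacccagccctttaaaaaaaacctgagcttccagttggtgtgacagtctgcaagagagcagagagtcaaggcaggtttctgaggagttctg
Ifit3: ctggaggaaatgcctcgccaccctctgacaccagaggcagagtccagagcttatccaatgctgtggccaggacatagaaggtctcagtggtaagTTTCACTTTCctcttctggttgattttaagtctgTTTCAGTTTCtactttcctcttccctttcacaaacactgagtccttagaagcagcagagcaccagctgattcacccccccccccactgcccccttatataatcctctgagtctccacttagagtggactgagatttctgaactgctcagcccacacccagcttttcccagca
Ifitm3: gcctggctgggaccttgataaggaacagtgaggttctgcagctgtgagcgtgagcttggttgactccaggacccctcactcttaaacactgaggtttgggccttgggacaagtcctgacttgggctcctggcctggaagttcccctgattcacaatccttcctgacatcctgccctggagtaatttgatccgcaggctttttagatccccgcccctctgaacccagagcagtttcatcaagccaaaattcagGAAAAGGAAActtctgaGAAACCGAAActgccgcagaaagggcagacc
Ifnar1: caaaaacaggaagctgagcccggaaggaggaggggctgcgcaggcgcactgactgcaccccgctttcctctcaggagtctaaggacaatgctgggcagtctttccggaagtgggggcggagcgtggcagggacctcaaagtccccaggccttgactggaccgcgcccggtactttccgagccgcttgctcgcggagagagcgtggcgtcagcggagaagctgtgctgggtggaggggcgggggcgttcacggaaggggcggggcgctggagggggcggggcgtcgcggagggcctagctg
The Isg15 promoter held 3 overlapping matches, whose first bases lie 78, 72 and 66 bases before the start. Ifit1 and Ifit3 held 2 matches each, Ifitm3 held 2 just downstream of the start, and the Ifnar1 window held none. A RefSeq promoter was matched by symbol for 27 of the 36 genes. Of these, 12 (44.4%) held at least 1 ISRE match in these windows, against 1079 of 27025 genes (3.99%) in the whole table. The genes with a match were Stat2, Ddx58, Ifih1, Ifit1, Ifit3, Oas1a, Eif2ak2, Isg15, Rsad2, Bst2, Ifitm3 and Trim30a. All of these but Stat2 were called higher in PS19 than in WT below. Without a match were Ifnar2, Irf9, Irf7, Trim25, Ifi202b, Ifit2, Oasl1, Oasl2, Cmpk2, Xaf1 and Ifi44, which were called higher too. Ifnar1, Irf1, Ifi35 and Sp100, also without a match, were not called. A STAT dimer motif, TTCNNNGAA, which reads the same on both strands, was found in 10 of the 27 (37.0%), against 9.55% of all genes. No test was made of these shares, and a match is a description of the letters only.

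Each library held 33885850 to 47828111 gene counts, with a count for 18869 to 19321 genes, and 16657 genes passed the filter on low counts, all 36 interferon-response genes among them. Values are CPM, counts per 1000000 gene counts of the library, and 1 read was worth 0.0209 to 0.0295 CPM. Prnp, to which transcripts of the transgene may add, had 1826 to 2023 CPM in PS19/C3aR KO, 1838 to 1989 CPM in PS19, 807.5 to 873 CPM in C3aR KO and 820.2 to 914 CPM in WT libraries. The targeted gene C3ar1 went against its label: it had 15.6 to 18.7 CPM in PS19/C3aR KO, 4.86 to 14 CPM in PS19, 14.4 to 18.0 CPM in C3aR KO and 1.66 to 2.34 CPM in WT libraries. Whether the C3ar1 reads came from an intact gene cannot be seen from gene totals, and C3aR KO below means the libraries labelled so. Summed markers of hippocampal neurons were at 361 to 532 CPM in PS19/C3aR KO, 422 to 491 CPM in PS19, 402 to 525 CPM in C3aR KO and 405 to 553 CPM in WT libraries. The share of gene counts on the ribosomal RNA precursor Rn45s was 1.04 to 3.03% in PS19/C3aR KO, 0.873 to 3.65% in PS19, 0.923 to 4.34% in C3aR KO and 2.85 to 4.48% in WT libraries. In PS19 it was 0.873 to 1.77% in libraries 1 to 4 and 3.65% in library 5.

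Comparing PS19 with WT asks what the tau transgene changes. The interferon response was higher in the PS19 hippocampus: 31 of the 36 genes rose and 0 fell by edgeR's quasi-likelihood test at an adjusted p below 0.05, where 7.5% of all tested genes rose and 3.32% fell. The median log2 fold change of the 36 was 1.39, against -0.0068 over all tested genes. By role, 4 of 7 receptor and transduction genes, 6 of 6 sensors, 7 of 7 genes of the IFIT and OAS families and 14 of 16 other effectors rose. Of the sensors, Ifi202b and Zbp1 were tested mainly because transgenic libraries were high, as described below. By limma-voom these counts were 2, 5, 1 and 12, so that the call for 6 of the 7 IFIT and OAS genes was not shared by that test. In bulk tissue, more cells of a type and more RNA per cell cannot be told apart. The extent differed widely between PS19 libraries, as the values below show, and the number of calls moved with it: 20 genes were called without PS19 library 2 and 33 without PS19 library 5. DESeq2 called 33, limma-voom 20, and edgeR with the Rn45s share as a covariate only Ifitm3, with a median log2 fold change of 1.20 in that fit. The share of all tested genes called was computed only for the edgeR fit that gave the 31 calls. Counts by other fits, here and below, have no such share beside them.

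Among receptor and transduction genes, the differences of the receptor chains, Stat2 and Irf1 were small. Ifnar1 encodes a chain of the receptor. It had 63.9, 62.8, 67.2, 62.9 and 56.9 in PS19/C3aR KO, 62.4, 62, 67.1, 62 and 55.6 in PS19, 57.3, 66, 64.1, 58.8 and 56.6 in C3aR KO, and 56.1, 67.3, 57, 57.9 and 58.2 in WT libraries (CPM in libraries 1 to 5 of each group, the order used for the genes that follow as well). These overlapped between the 4 groups, and PS19 minus WT was 0.00058 (SE 0.051, edgeR adjusted p = 0.996) on the log2 scale. Ifnar2, the ligand-binding partner chain, had 24.1, 16.8, 21.2, 19.1 and 20.4 in PS19/C3aR KO, 25.4, 21.8, 23.5, 25.5 and 18.6 in PS19, 19.5, 17.6, 16.7, 20.4 and 16.9 in C3aR KO, and 17.9, 17.7, 19.3, 17.4 and 16.8 in WT libraries. In PS19 only library 5 lay within the WT range, and Ifnar2 rose by 0.30 (SE 0.092, edgeR adjusted p = 0.0395). Stat2, the interferon-specific STAT, had 52.2, 34.1, 36.3, 34 and 30.4 in PS19/C3aR KO, 29.5, 56.2, 40.9, 39.6 and 33.5 in PS19, 31, 36.3, 33, 34.7 and 30.6 in C3aR KO, and 25.6, 33.8, 32.1, 30.3 and 35.1 in WT libraries. PS19 library 2 and PS19/C3aR KO library 1 stood highest while PS19 library 1 was below 4 of the WT libraries, and Stat2 differed by 0.29 (SE 0.15, edgeR adjusted p = 0.24), which did not pass. Irf1, a transcription factor induced by type I and type II interferon, had 8.00 to 12.3 CPM in PS19 and 6.76 to 9.20 CPM in WT libraries, a difference of 0.32 (SE 0.15, edgeR adjusted p = 0.181).

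Irf9, Irf7 and Usp18, which interferon itself induces, all rose. Irf9, the DNA-binding subunit of ISGF3, had 22.1, 10.5, 17.7, 16.1 and 9.36 in PS19/C3aR KO, 12.4, 31, 19.1, 20.6 and 11.4 in PS19, 10.4, 10.7, 13.5, 9.86 and 8.87 in C3aR KO, and 9.2, 9.01, 7.69, 8.16 and 10.9 in WT libraries. PS19 and WT libraries did not overlap, with PS19 highest, library 2 by the most and library 5 by the least, and Irf9 rose by 1.01 (SE 0.24, edgeR adjusted p = 0.0108). Irf7, the factor that amplifies interferon alpha production, had 10.2, 2.9, 6.34, 4.29 and 2.82 in PS19/C3aR KO, 2.46, 13.1, 8.01, 8.56 and 1.5 in PS19, 2.0, 2.21, 2.64, 1.68 and 2.13 in C3aR KO, and 1.42, 1.35, 1.34, 1.84 and 1.41 in WT libraries. PS19 libraries 2, 3 and 4 stood far above WT, library 1 just above it and library 5 inside its range, and Irf7 rose by 2.12 (SE 0.46, edgeR adjusted p = 0.00518). Usp18, which removes ISG15 from proteins and dampens signalling at IFNAR2, had 6.68, 1.44, 4.6, 2.98 and 1.36 in PS19/C3aR KO, 1.44, 7.38, 4.19, 5.28 and 0.847 in PS19, 0.823, 1.32, 0.926, 0.903 and 1.13 in C3aR KO, and 1.33, 1.03, 1.2, 0.845 and 0.503 in WT libraries. PS19 library 5 again lay within the WT range, with library 1 just above it, and Usp18 rose by 1.90 (SE 0.51, edgeR adjusted p = 0.0201).

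**Figure D1:**
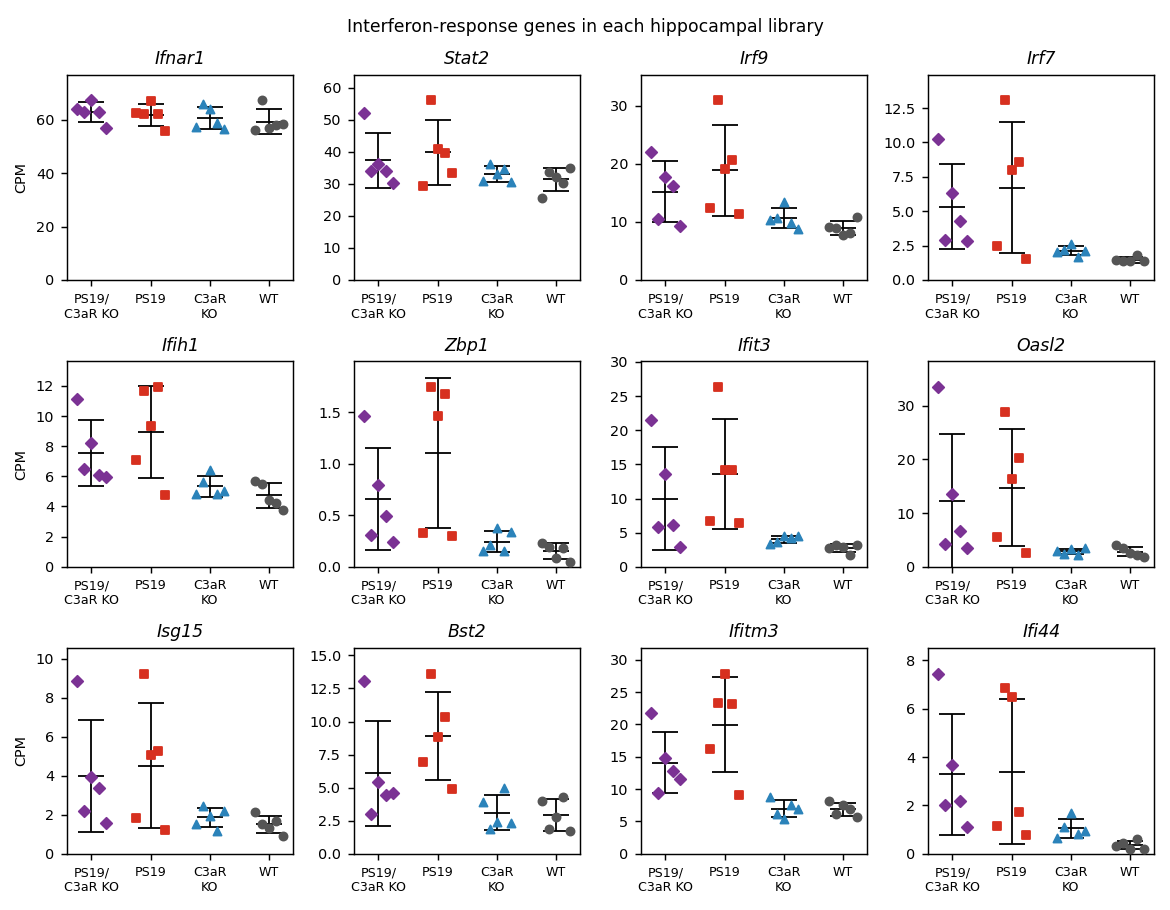
CPM (vertical axes, linear from 0) of 12 interferon-response genes in each library (points, libraries 1 to 5 from left to right within a group) of PS19/C3aR KO, PS19, C3aR KO and WT mice, with the mean and SD of the 5 libraries of each group as bars, cut at 0 for Oasl2. Ifnar1 lies at 55.6 to 67.3 CPM throughout, while for most other genes PS19 libraries 2 to 4 and PS19/C3aR KO libraries 1 and 3 stand above the C3aR KO and WT libraries.

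All 6 genes of the group of nucleic acid sensors and their regulators rose in PS19. Ifih1, which encodes the sensor of long double-stranded RNA MDA5, had 11.1, 6.47, 8.2, 6.08 and 5.94 in PS19/C3aR KO, 7.11, 11.7, 9.34, 11.9 and 4.75 in PS19, 4.83, 5.6, 6.4, 4.82 and 5.02 in C3aR KO, and 5.72, 5.51, 4.43, 4.25 and 3.75 in WT libraries. PS19 libraries 1 to 4 were above every WT library and library 5 was among them, and Ifih1 rose by 0.86 (SE 0.21, edgeR adjusted p = 0.0132). Zbp1, a sensor of Z-form nucleic acids linked to necroptosis, had 1.46, 0.311, 0.797, 0.493 and 0.244 in PS19/C3aR KO, 0.325, 1.75, 1.47, 1.68 and 0.30 in PS19, 0.154, 0.207, 0.381, 0.15 and 0.335 in C3aR KO, and 0.236, 0.196, 0.0857, 0.179 and 0.0503 in WT libraries. Each PS19 library exceeded each WT library, libraries 1 and 5 by little, with 2 to 8 counts in each WT library, and Zbp1 rose by 2.80 (SE 0.60, edgeR adjusted p = 0.00476). No WT library reached the minimum count of the filter for Zbp1, which was tested mainly because transgenic libraries were high. This limits what its adjusted p can say. Ddx58, encoding RIG-I, had 7.08 to 16.0 CPM in PS19 and 5.15 to 6.12 CPM in WT libraries and rose by 1.03 (SE 0.23, edgeR adjusted p = 0.00605). Dhx58, encoding LGP2, a regulator of RIG-I and MDA5, had 1.42 to 3.49 CPM in PS19 and 1.12 to 1.35 CPM in WT libraries and rose by 1.04 (SE 0.22, edgeR adjusted p = 0.0048). For Ddx58 and Dhx58 the PS19 and WT libraries did not overlap. Trim25, the ubiquitin ligase best known for activating RIG-I, had 8.55 to 17.1 CPM in PS19 and 6.81 to 8.73 CPM in WT libraries and rose by 0.84 (SE 0.18, edgeR adjusted p = 0.00439).

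Ifi202b, a DNA-binding protein of the Ifi200 cluster, had the largest fitted difference of the 36 in PS19 minus WT. It had 0, 0, 0.118, 0.0428 and 0 in PS19/C3aR KO, 1.14, 4.2, 2.86, 0 and 0.464 in PS19, 0, 0.0519, 0.0272, 0.0752 and 0.104 in C3aR KO, and 0.059, 0.049, 0, 0.537 and 0.0503 in WT libraries. PS19 libraries 1, 2 and 3 were the highest of all 20, PS19 library 4 had no count, and WT library 4 stood above PS19 library 5. Only PS19 libraries 1, 2, 3 and 5 and WT library 4 reached the minimum count of the filter. Ifi202b was thus tested mainly because PS19 libraries were high, which limits what its adjusted p values can say. The totals were 6 counts over the PS19/C3aR KO, 339 over the PS19, 11 over the C3aR KO and 27 over the WT libraries. PS19 minus WT was 3.51 (SE 0.94, edgeR adjusted p = 0.02), and the adjusted p was 0.0627 without PS19 library 2. A fitted fold change between groups with so many libraries at or near 0 depends on the prior count and is not a measured ratio.

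The 7 genes of the IFIT and OAS families had a median log2 fold change of 2.05. Ifit3, one of the IFIT proteins that bind viral RNA, had 21.5, 5.82, 13.6, 6.08 and 2.85 in PS19/C3aR KO, 6.74, 26.3, 14.2, 14.1 and 6.45 in PS19, 3.32, 3.58, 4.47, 4.26 and 4.52 in C3aR KO, and 2.8, 3.16, 2.92, 1.79 and 3.14 in WT libraries. Every PS19 library was above every WT library, with libraries 1 and 5 lowest, and Ifit3 rose by 2.23 (SE 0.44, edgeR adjusted p = 0.00297). Ifit1, which recognises caps lacking a methyl group, had 1.94 to 19.9 CPM in PS19 and 1.38 to 3.13 CPM in WT libraries and rose by 1.95 (SE 0.55, edgeR adjusted p = 0.027). Ifit2 rose by 0.55 (SE 0.17, edgeR adjusted p = 0.0454). Oas2, which makes 2′-5′ oligoadenylate, the activator of RNase L, had 3.4, 1.13, 1.36, 1.97 and 1.03 in PS19/C3aR KO, 0.976, 5.03, 2.83, 2.16 and 0.738 in PS19, 0.771, 0.96, 1.01, 0.602 and 0.878 in C3aR KO, and 0.767, 0.612, 0.743, 0.665 and 0.478 in WT libraries. PS19 libraries 2, 3 and 4 were the highest of that group and library 5 lay within the WT range, and Oas2 rose by 1.78 (SE 0.43, edgeR adjusted p = 0.0104). Oasl2, an OAS-like protein, had 33.4, 4.26, 13.5, 6.62 and 3.5 in PS19/C3aR KO, 5.62, 28.9, 16.4, 20.3 and 2.49 in PS19, 2.93, 2.39, 3.35, 2.18 and 3.41 in C3aR KO, and 4.01, 3.5, 2.54, 2.23 and 1.89 in WT libraries. PS19 library 2 and PS19/C3aR KO library 1 were highest and PS19 library 5 lay inside the WT range, and Oasl2 rose by 2.31 (SE 0.60, edgeR adjusted p = 0.0177). Oas1a and Oasl1 rose by 2.41 (SE 0.50, edgeR adjusted p = 0.00375) and 2.05 (SE 0.52, edgeR adjusted p = 0.0159). Ifit3 has the near-identical neighbour Ifit3b and Oas1a the near-identical Oas1g, so how reads were shared within these pairs is uncertain.

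Among the other effectors, Isg15, a ubiquitin-like protein conjugated to other proteins and also secreted, had 8.84, 2.2, 3.95, 3.36 and 1.6 in PS19/C3aR KO, 1.83, 9.23, 5.04, 5.28 and 1.23 in PS19, 1.54, 2.44, 1.93, 1.18 and 2.22 in C3aR KO, and 2.12, 1.54, 1.31, 1.66 and 0.905 in WT libraries. PS19 libraries 2, 3 and 4 stood above every WT library, libraries 1 and 5 did not, and Isg15 rose by 1.52 (SE 0.48, edgeR adjusted p = 0.0473). Bst2, or tetherin, which holds budding virions at the cell surface, had 13, 2.97, 5.46, 4.43 and 4.56 in PS19/C3aR KO, 6.92, 13.6, 8.81, 10.3 and 4.89 in PS19, 3.91, 1.84, 2.42, 4.99 and 2.3 in C3aR KO, and 4.01, 1.86, 2.77, 4.28 and 1.74 in WT libraries. The PS19 libraries were all above the WT libraries, with library 5 close to the top of the WT range, and Bst2 rose by 1.54 (SE 0.39, edgeR adjusted p = 0.0151). Ifitm3, which blocks viral entry at endosomal membranes, had 21.8, 9.37, 14.9, 12.8 and 11.5 in PS19/C3aR KO, 16.3, 23.4, 27.8, 23.2 and 9.02 in PS19, 8.71, 6.2, 5.39, 7.6 and 6.9 in C3aR KO, and 8.2, 6.17, 7.52, 6.91 and 5.68 in WT libraries. PS19 libraries 1 to 4 were far above every WT library and library 5 was just above their range, and Ifitm3 rose by 1.47 (SE 0.25, edgeR adjusted p = 0.000966), the lowest p of the 36 genes. Ifi27l2a, a small protein of the IFI27 family, had 3.28, 1.1, 2.04, 1.41 and 1.03 in PS19/C3aR KO, 0.86, 2.68, 2.48, 1.81 and 0.601 in PS19, 0.694, 0.389, 0.517, 0.301 and 0.815 in C3aR KO, and 0.855, 0.514, 0.629, 0.563 and 0.352 in WT libraries. PS19 library 5 lay inside the WT range and library 1 at its upper edge, and Ifi27l2a rose by 1.47 (SE 0.42, edgeR adjusted p = 0.028). Its gene overlaps Ifi27, which itself rose by 0.70 (SE 0.19, edgeR adjusted p = 0.0253), and reads of the 2 genes may not be fully separated. The remaining effectors that rose were Eif2ak2 (the RNA-activated kinase PKR), Rsad2 (viperin, a radical SAM enzyme), Cmpk2, Xaf1 (a binding partner of the apoptosis inhibitor XIAP), Rtp4 (a receptor-transporting protein), Trim30a (of the TRIM family of ubiquitin ligases), Parp14 and Parp9 (of the ADP-ribosyltransferase family) and Ifi44. Their log2 fold changes ran from 0.26 (SE 0.065, edgeR adjusted p = 0.014) for Cmpk2, a mitochondrial nucleotide kinase, to 3.17 (SE 0.64, edgeR adjusted p = 0.00315) for Ifi44. Ifi35 and Sp100, a nuclear-body protein, did not pass, with 0.54 (SE 0.19, edgeR adjusted p = 0.0743) and 0.68 (SE 0.24, edgeR adjusted p = 0.0742).

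In 12 of the 36 genes each PS19 library exceeded each WT library, against 8.11% of all tested genes. These genes were Irf9, Ddx58, Dhx58, Zbp1, Ifit3, Eif2ak2, Cmpk2, Bst2, Ifitm3, Ifi27, Xaf1 and Ifi44. The lowest PS19 and highest WT libraries were close for Cmpk2 (21.47 and 21.37 CPM), Xaf1 (8.469 and 8.286 CPM), Irf9 (11.36 and 10.91 CPM) and Dhx58 (1.421 and 1.346 CPM). For their level they were furthest apart for Ifit3 (6.447 and 3.158 CPM). Of the 31 genes that rose, Isg15 was called in 5 of the 20 fits that each left out 1 library, Ifit2 in 7, Ifnar2 and Ifi27l2a in 13, Ifit1 and Xaf1 in 14, Rsad2 in 15, Usp18 and Ifi27 in 16, Ifi202b in 17, Oasl2 in 18 and Oasl1 in 19, and the other 19 in all 20. Levels between genes were compared per length of exon, in CPM per kb. Ifi27 stood highest in PS19 at 34.8 CPM per kb, then Ifitm3 at 29.4 and Ifnar1 at 15.8, and in WT the order of these 3 was Ifi27 at 20.5, Ifnar1 at 15.2 and Ifitm3 at 10.2 CPM per kb. Oasl1 at 0.426 and Zbp1 at 0.510 CPM per kb were the lowest in PS19.

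**Figure D2:**
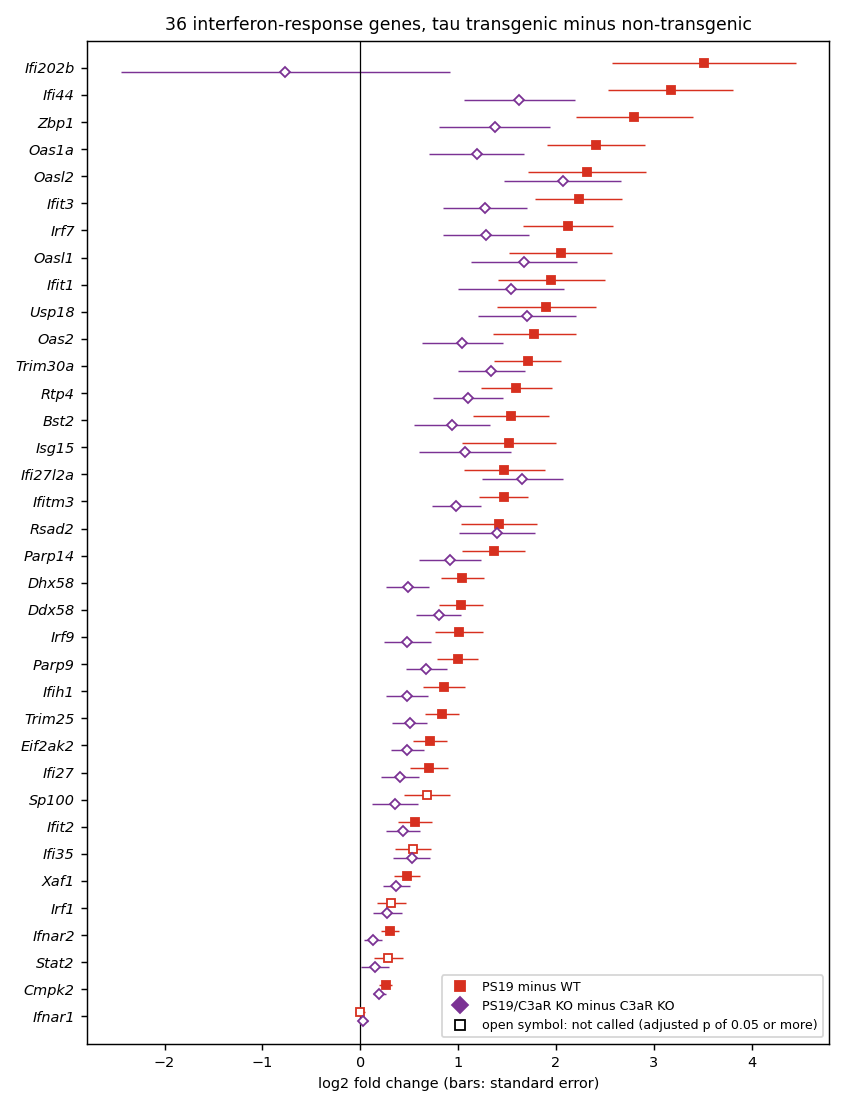
Log2 fold changes with standard errors (horizontal axis) of the 36 genes (vertical axis, ordered by PS19 minus WT) for PS19 minus WT, squares, and PS19/C3aR KO minus C3aR KO, diamonds, filled where edgeR's adjusted p was below 0.05. In PS19 minus WT 31 squares are filled, and in PS19/C3aR KO minus C3aR KO 35 of 36 diamonds lie above 0 and none is filled.

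The interferon ligands had too few counts to test at this depth. Of 21 listed genes for type I, II and III interferons 11 had no count in any library, 0 passed the filter, and the highest total was 13 counts over the 20 libraries, for Ifnk. Ifnb1, encoding interferon beta, had 1 count, in PS19/C3aR KO library 1. Ifng, the type II interferon of T and NK cells, had 4 counts in all. With 3 counts as the limit that a count of 0 allows, a gene with no count could have been at up to 0.0627 to 0.0885 CPM in 1 library, for counting error only.

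Many other genes of the pathway rose as well. Of 76 other tested genes of a list of the pathway, 43 rose in PS19 minus WT and 0 fell, against the 7.5% and 3.32% of all tested genes given above, which also stand beside the counts by role that follow. With the Rn45s share as a covariate 9 of the 76 were called. Among receptor signalling genes, those that rose included Ptpn6, the phosphatase SHP-1, by 1.46 (SE 0.24, edgeR adjusted p = 0.000785), the feedback inhibitor Socs3 by 1.38 (SE 0.33, edgeR adjusted p = 0.00904), and Ifngr1, a chain of the interferon gamma receptor, by 0.38 (SE 0.077, edgeR adjusted p = 0.00346). The receptor kinases Jak1 and Tyk2 were at -0.038 (adjusted p = 0.767) and 0.019 (adjusted p = 0.95) by edgeR.

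Of 13 genes that induce interferon 9 rose, among them the transcription factors Irf8 by 1.53 (SE 0.21, edgeR adjusted p = 0.000239) and Irf5 by 1.04 (SE 0.19, edgeR adjusted p = 0.00161), and the endosomal RNA receptors Tlr3 by 0.63 (SE 0.093, edgeR adjusted p = 0.000359) and Tlr7 by 1.52 (SE 0.24, edgeR adjusted p = 0.000503). The DNA sensor cGAS, listed as Mb21d1, was at 0.069 (adjusted p = 0.822) and Irf3 at 0.25 (adjusted p = 0.145) by edgeR. Of 42 further interferon-stimulated genes 24 rose, with the lowest p for Ifi30, a thiol reductase of antigen processing, by 1.43 (SE 0.21, edgeR adjusted p = 0.000347), Lgals3bp, a galectin-binding glycoprotein, by 1.74 (SE 0.29, edgeR adjusted p = 0.000856), Phf11b by 2.79 (SE 0.48, edgeR adjusted p = 0.000966) and Ifit3b by 1.92 (SE 0.37, edgeR adjusted p = 0.00255). Mx1, an antiviral GTPase, had 4.18, 0.503, 1.3, 0.964 and 0.136 in PS19/C3aR KO, 0.72, 4.22, 1.31, 1.87 and 0.383 in PS19, 0.231, 0.363, 0.272, 0.301 and 0.209 in C3aR KO, and 0.177, 0.171, 0.229, 0.154 and 0.0754 in WT libraries. PS19 library 5 was just above the WT range and library 2 highest, and Mx1 rose by 3.32 (SE 0.75, edgeR adjusted p = 0.00679). For Mx1 and Phf11b no WT library reached the minimum count of the filter, and both were tested mainly because transgenic libraries were high. Mx2 rose by 1.57 (SE 0.40, edgeR adjusted p = 0.0141). Of 7 immunity-related GTPases, which act on vacuoles of intracellular pathogens, 4 rose: Irgm1 by 1.26 (SE 0.28, edgeR adjusted p = 0.00579), Irgm2 by 0.99 (SE 0.23, edgeR adjusted p = 0.00848), Igtp by 1.23 (SE 0.32, edgeR adjusted p = 0.0176) and Iigp1 by 1.5 (SE 0.43, edgeR adjusted p = 0.03). In the Ifi200 cluster other than Ifi202b, 2 of 5 genes rose, Ifi204 by 2.54 (SE 0.62, edgeR adjusted p = 0.0121) and Pyhin1 by 1.91 (SE 0.60, edgeR adjusted p = 0.0477), while Ifi203 was at 0.21 (adjusted p = 0.631) and Mndal at -0.45 (adjusted p = 0.519).

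Within the transgenic groups, the libraries differed in the whole response at once. PS19 library 2 was the highest of its group for 29 of the 36 genes and PS19 library 5 the lowest for 34. Over all tested genes library 2 was highest for 20.8% and library 5 lowest for 35.4%. PS19/C3aR KO library 1 was the highest of its group for 33 of the 36, against 23.3% of all tested genes. Libraries 5 and 2 of that group were the lowest for 19 and 16, against 25.1% and 28.1% of all tested genes. The ratio of the highest to the lowest library of a group, taken over the 35 genes other than Ifi202b, had a median of 2.60 in PS19/C3aR KO, 2.83 in PS19, 1.52 in C3aR KO and 1.49 in WT. Over all tested genes with a count in each library of the group it was 1.29 in PS19/C3aR KO, 1.27 in PS19, 1.30 in C3aR KO and 1.28 in WT. Of the 35 genes, 6 spanned more than 5-fold within PS19/C3aR KO, 10 within PS19, and 0 within C3aR KO or WT. Over all tested genes with no library at 0 the share that spanned more than 5-fold was 3.06% in PS19/C3aR KO, 2.25% in PS19, 2.30% in C3aR KO and 2.54% in WT. The numbers of the 36 genes above every WT library were 34, 21, 33, 30 and 22 in PS19/C3aR KO libraries 1 to 5, 32, 35, 35, 34 and 12 in PS19 libraries, and 9 to 12 in C3aR KO libraries. Over all tested genes PS19/C3aR KO libraries had 25.4 to 36.3% above every WT library, PS19 libraries 19.7 to 38.7% and C3aR KO libraries 11.1 to 33.1%.

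**Figure D3:**
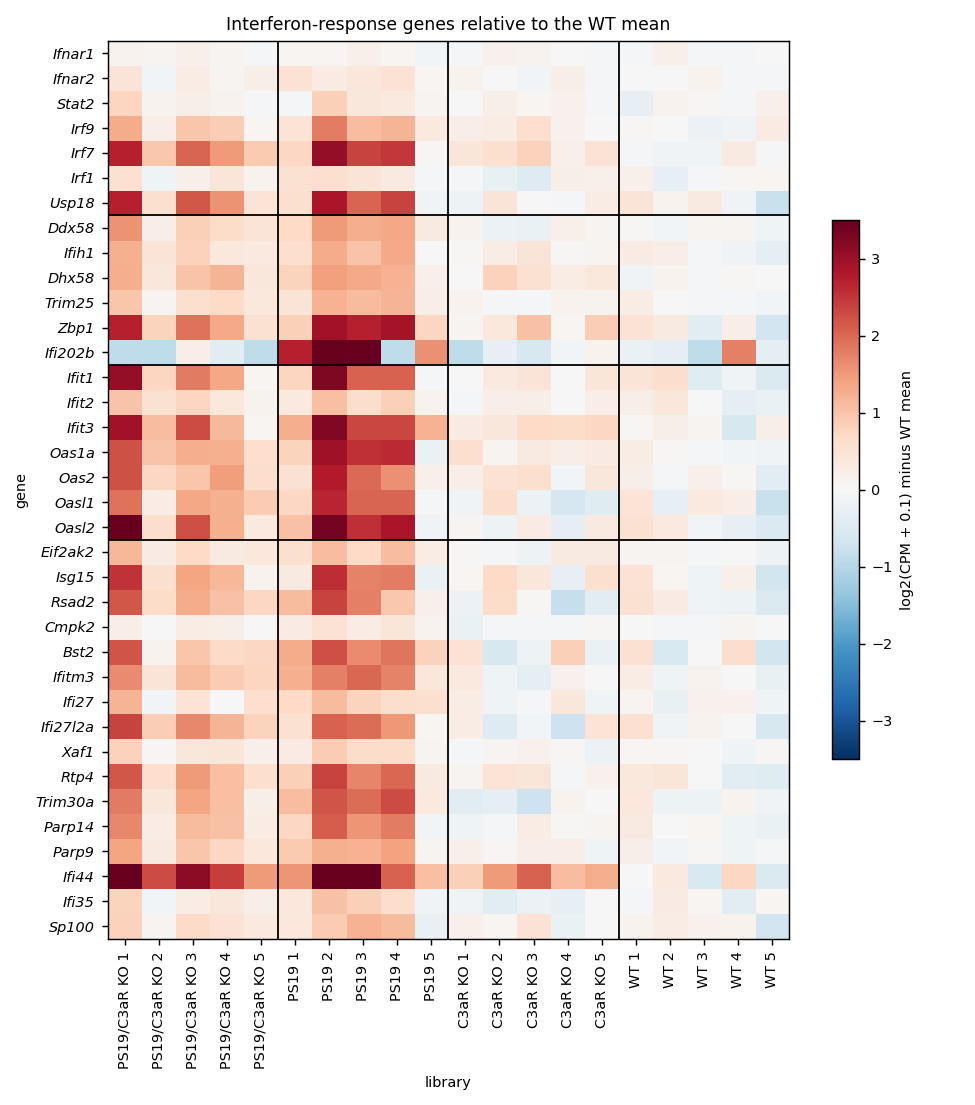
Log2(CPM + 0.1) of the 36 genes (rows, grouped by role) minus the WT mean of the gene in each of the 20 libraries (columns). PS19 libraries 2 to 4 and PS19/C3aR KO libraries 1 and 3 are red in most rows, PS19 library 5 is close to the WT libraries, and Ifi202b is high in PS19 libraries 1 to 3 and not in PS19/C3aR KO.

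A score per library, the mean log2 CPM of the 36 genes minus its WT mean, was 1.68, 0.40, 1.14, 0.84 and 0.38 in PS19/C3aR KO libraries 1 to 5, 0.77, 2.01, 1.62, 1.44 and 0.24 in PS19, 0.055 to 0.20 in C3aR KO and -0.28 to 0.22 in WT libraries. The whole range of PS19/C3aR KO libraries lay within that of PS19 libraries. Microglial markers moved with it in part. The score of 10 microglial markers was 0.70, 0.33, 0.80, 0.27 and 0.12 in PS19/C3aR KO libraries 1 to 5, 1.14, 1.04, 1.26, 1.26 and 0.32 in PS19, -0.14 to 0.084 in C3aR KO and -0.035 to 0.068 in WT libraries. PS19 libraries 1 to 4 thus had close microglial scores and interferon scores that ran from 0.77 to 2.01, while library 5 was lowest in both. All 10 microglial markers rose in PS19 minus WT, with a median log2 fold change of 0.95, and their summed level was 404 to 676 CPM in PS19/C3aR KO, 462 to 953 CPM in PS19, 338 to 387 CPM in C3aR KO and 347 to 362 CPM in WT libraries. None was at 0 in a whole group. Astrocyte markers also moved, with a score of 0.61, 0.31, 0.64, 0.42 and 0.22 in PS19/C3aR KO libraries 1 to 5, 0.91, 0.71, 1.05, 0.998 and 0.31 in PS19, -0.10 to 0.11 in C3aR KO and -0.046 to 0.051 in WT libraries. PS19 library 5 was again the lowest of its group, and 5 of the 6 astrocyte markers rose in PS19 minus WT, with a median log2 fold change of 0.38. Of 5 oligodendrocyte markers 2 rose, and of 5 general neuronal markers 2 fell, with medians of 0.39 and -0.10. Of 8 choroid plexus markers 0 were called, with a median of 1.02, and their score ran from -2.57 to 2.77 in PS19/C3aR KO, -1.76 to 2.67 in PS19, -3.15 to 2.34 in C3aR KO and -2.48 to 1.56 in WT libraries. With that score as a covariate 31 of the 36 interferon-response genes were again called in PS19 minus WT, with a median log2 fold change of 1.41. The part of the astrocytes, oligodendrocytes, neurons and microglia in the interferon result was not tested.

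Markers of T and NK cells were present at a trace and also differed between transgenic libraries. Their score was 1.10, 0.13, 0.90, 0.41 and 0.34 in PS19/C3aR KO libraries 1 to 5, 0.49, 1.36, 1.26, 0.86 and -0.059 in PS19, -0.14 to 0.45 in C3aR KO and -0.20 to 0.18 in WT libraries. From high to low, PS19 libraries ran 2, 3, 4, 1 and 5 in both the interferon score and this one, and PS19/C3aR KO libraries ran 1, 3, 4, 2 and 5 in the interferon score and 1, 3, 4, 5 and 2 in this one. It rested on 7 of 8 listed genes with a summed level of 0.911 to 1.91 CPM in PS19/C3aR KO, 0.574 to 2.12 CPM in PS19, 0.652 to 1.20 CPM in C3aR KO and 0.528 to 0.794 CPM in WT libraries. Only Ncr1 was at 0 in a whole group, C3aR KO. Of the 3 markers that passed the filter 0 were called by edgeR in PS19 minus WT. Summed neutrophil markers were at 47.4 CPM in PS19 library 3 and at 0.109 to 2.60 CPM in the other 19 libraries. The part of these cells in the interferon result was not tested.

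**Figure D4:**
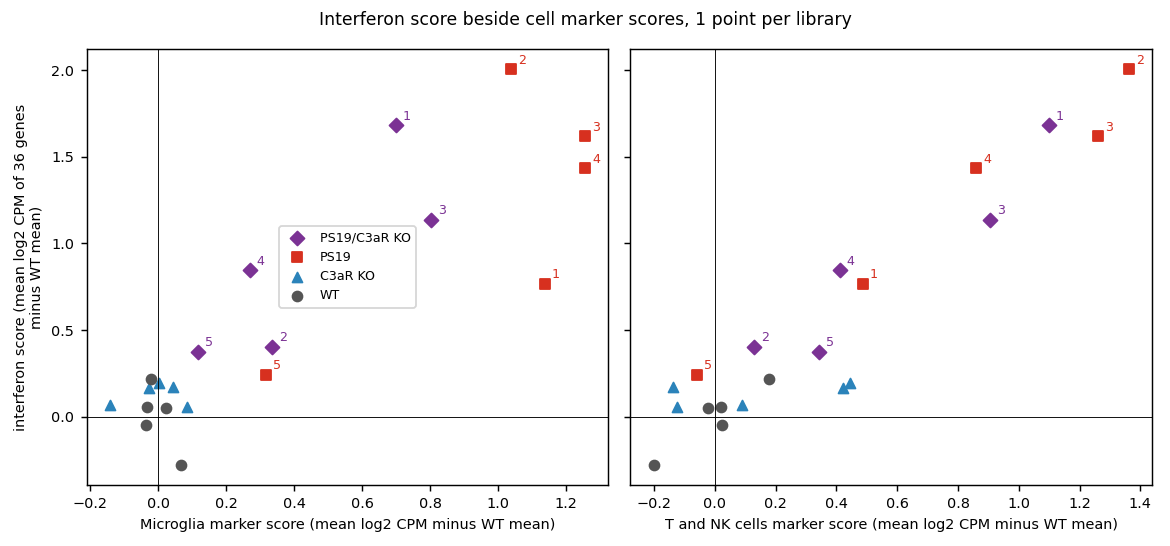
Interferon score (vertical axis, mean log2 CPM of the 36 genes minus the WT mean) against the microglial score (left) and the T and NK cell score (right) of the same library, 1 point per library of PS19/C3aR KO, PS19, C3aR KO and WT mice, with library numbers at the transgenic points. PS19 libraries 1 to 4 lie at microglial scores of 1.04 to 1.26 with interferon scores of 0.77 to 2.01.

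In mice without the tau transgene, comparing C3aR KO with WT asks what the C3aR KO genotype changes by itself. By edgeR 0 of the 36 genes were called, where 0.06% of all tested genes were called, 0.042% higher and 0.018% lower. The median log2 fold change was 0.033, 21 genes were above 0 and 15 below it, 1 had an unadjusted p below 0.05, against 6.00% of all tested genes, and DESeq2 and limma-voom also called 0. That gene was Ifi44, with 0.668 to 1.69 CPM in C3aR KO and 0.200 to 0.614 CPM in WT libraries and a log2 difference of 1.49 (SE 0.65, edgeR adjusted p = 0.801). Ifi44 and Ifit3 were the 2 genes with all 5 C3aR KO libraries above all 5 WT libraries, against 1.03% of all tested genes. Ifit3 had 3.32 to 4.52 CPM in C3aR KO and 1.79 to 3.16 CPM in WT libraries, with 0.51 (SE 0.44, edgeR adjusted p = 0.916). Of the 76 other pathway genes 0 were called by edgeR and 1 had an unadjusted p below 0.05.

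The effect of the transgene under the C3aR KO genotype, PS19/C3aR KO minus C3aR KO, was above 0 for 35 of the 36 genes, with no call. By edgeR 0 of the 36 genes passed, where 0.006% of all tested genes were called higher and 0% lower. Of the 36, 28 had an unadjusted p below 0.05, against 9.71% of all tested genes, and DESeq2 called 5 and limma-voom 0. The share of all tested genes called by DESeq2 or limma-voom was not computed. The median log2 fold change was 0.86. In 12 genes all 5 PS19/C3aR KO libraries exceeded all 5 C3aR KO libraries, against 1.54% of all tested genes: Irf7, Usp18, Ddx58, Oas1a, Oas2, Oasl2, Rsad2, Ifitm3, Ifi27l2a, Rtp4, Trim30a and Parp9. The lowest PS19/C3aR KO and highest C3aR KO libraries were close for Oas1a (0.5155 and 0.5141 CPM), Rsad2 (2.013 and 1.998 CPM), Oas2 (1.031 and 1.008 CPM) and Usp18 (1.356 and 1.323 CPM). Relative to their level, Ddx58 (6.637 and 6.471 CPM) and Oasl2 (3.5 and 3.408 CPM) were close as well. Ifi27l2a was the furthest apart for its level (1.031 and 0.8154 CPM), and the remaining genes lay in between. The lowest p values were those of Ifi27l2a at 1.66 (SE 0.42, edgeR adjusted p = 0.147) and Ifitm3 at 0.98 (SE 0.25, edgeR adjusted p = 0.152). Without PS19/C3aR KO library 1 the median was 0.51, 14 genes had an unadjusted p below 0.05 and 0 were called. The 9.71% belongs to the fit of all libraries, and no such share was computed for the fit without this library. Of the 76 other pathway genes 0 were called by edgeR, 0 by limma-voom and 11 by DESeq2, and 41 had an unadjusted p below 0.05.

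Comparing PS19/C3aR KO with PS19 asks whether the response of transgenic mice differs with the C3aR KO genotype. By edgeR 1 of the 36 genes, Ifi202b, fell and 0 rose, where 0.18% of all tested genes were lower and 0.072% higher. The median log2 fold change was -0.26 and 34 of 36 genes were below 0, 2 had an unadjusted p below 0.05, against 14.5% of all tested genes, and in 0 of the 36 did the groups not overlap, against 0.991% of all tested genes above and 1.01% below. This median moved with single libraries: it was -0.095 without PS19 library 2, -0.15 without PS19/C3aR KO library 2 and -0.53 without PS19/C3aR KO library 1. Irf7 was at -0.34 (SE 0.43, edgeR adjusted p = 0.759), Ifit3 at -0.45 (SE 0.42, edgeR adjusted p = 0.663), Isg15 at -0.18 (SE 0.46, edgeR adjusted p = 0.886) and Ifitm3 at -0.51 (SE 0.24, edgeR adjusted p = 0.346). Cmpk2, the other gene with an unadjusted p below 0.05, was at -0.18 (SE 0.065, edgeR adjusted p = 0.206). Of the 76 other pathway genes 0 were called by edgeR, 0 by limma-voom and 5 by DESeq2, and 17 had an unadjusted p below 0.05, beside the same 14.5%.

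Ifi202b differed by -5.67 (SE 1.16, edgeR adjusted p = 0.0441), from the 6 and 339 counts given above. Without PS19 library 2 the adjusted p was 0.0990. DESeq2 gave an adjusted p of 0.00212, and limma-voom and edgeR without a filter on low counts called 0 of the genes. In edgeR on these groups alone Ifi202b did not pass the filter and was not tested. In the fit of all libraries it passed only through the PS19 libraries and the WT library named above. Over the fits that each left out 1 of the 20 libraries its edgeR adjusted p ran from 0.0102 to 0.136. The call held without WT library 2 or 4, PS19 library 4 or 5, or PS19/C3aR KO library 1, and was lost without any 1 of the other 15. Ifi204, of the same cluster, had 2.75, 0.527, 1.53, 0.857 and 0.434 in PS19/C3aR KO, 0.395, 1.85, 0.881, 2.85 and 0.355 in PS19, 0.231, 0.285, 0.163, 0.201 and 0.397 in C3aR KO, and 0.413, 0.0979, 0.20, 0.179 and 0.151 in WT libraries. PS19/C3aR KO library 1 and PS19 library 4 were its highest libraries and the 2 groups overlapped, and PS19/C3aR KO differed from PS19 by -0.063 (SE 0.53, edgeR adjusted p = 0.969). Ifi202b lies at 173962569 to 173982844 on chromosome 1 in the RefSeq annotation of GRCm38.

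**Figure D5:**
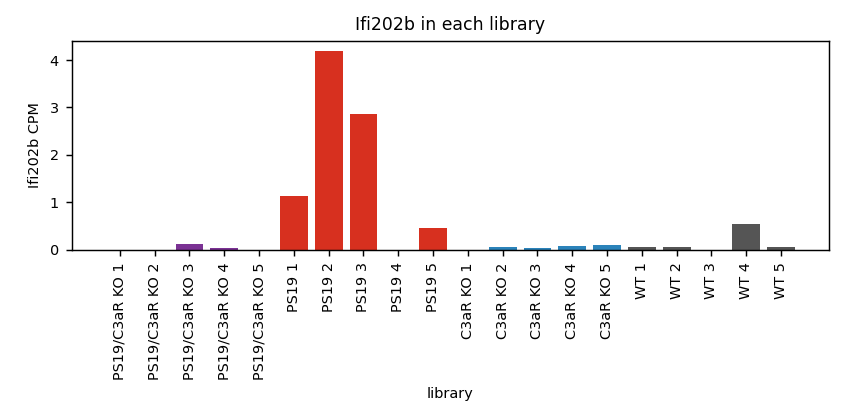
Ifi202b in CPM (vertical axis, linear from 0) in each library (bars) of PS19/C3aR KO, PS19, C3aR KO and WT mice. It reaches 1.14, 4.2 and 2.86 CPM in PS19 libraries 1 to 3, is at 0 in PS19 library 4, and stays at or below 0.118 CPM in PS19/C3aR KO libraries.

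The interaction is the transgene effect among libraries labelled C3aR KO minus that among the others. By edgeR 0 of the 36 genes passed, where 0% of all tested genes were called higher and 0.012% lower, and 1 gene, Ifi202b, had an unadjusted p below 0.05, against 4.15% of all tested genes. DESeq2 and limma-voom called 0. The median was -0.35 with 34 of 36 genes below 0, and estimates were wide: -0.84 (SE 0.63, edgeR adjusted p = 0.9995) for Irf7, -0.96 (SE 0.61, edgeR adjusted p = 0.9995) for Ifit3, -0.49 (SE 0.35, edgeR adjusted p = 0.9995) for Ifitm3 and -0.25 (SE 0.83, edgeR adjusted p = 0.9995) for Oasl2. The transgene effect was thus called for 0 of the 36 genes in libraries labelled C3aR KO and for 31 in the others, and no difference between the 2 effects passed the test. The comparisons share libraries: each of the 4 groups enters more than 1 of them, so their results are not independent.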

How the data were processed

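Hippocampal polyadenylated RNA was sequenced as 76-nt read pairs, mapped with TopHat 2.0.9 (genome mm10), and htseq-count tallied reads over the union of each gene's exons, per the labels' protocols. The deposited files hold raw counts for 24513 genes in 20 libraries, which the authors did not normalize. A role for DESeq2 is not stated, per the submitters' processing notes. The annotation release or strand setting was not given in the sources used here. Reads of a gene and an antisense partner therefore cannot be told apart. Pairs with several alignments are set aside by htseq-count, so counts of near-identical genes (Ifit3 and Ifit3b, Oas1a and Oas1g, Trim30a and Trim30d) are uncertain. So are those of overlapping genes (Ifi27 and Ifi27l2a, Ifit1 and Ifit1bl1, Stat2 and Apof, Eif2ak2 and Gm6548, Rtp4 and Masp1, Parp9 and Dtx3l). The 5 summary rows of each file were left out; pairs without a gene made up 17.4 to 25.4% and ambiguous pairs 1.39 to 1.64% of uniquely aligned pairs.

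CPM are counts per 1000000 gene counts of a library. Tests were made in R 4.3.3 with edgeR 4.0.16, as 1 quasi-likelihood fit with genotype as the factor over 20 libraries, TMM normalization and filterByExpr (minimum count 10, minimum total 15), with Benjamini-Hochberg adjustment over 16657 genes in each comparison and a threshold of 0.05. Between 2 genotypes a log2 fold change had a median standard error of 0.097. Library scores are means of log2 CPM with a prior count of 2. DESeq2 1.42.0, limma-voom (limma 3.58.1), other normalizations and filters, a replicate block, the Rn45s share or a choroid plexus score as covariate, and leaving out each library in turn were the alternatives. The edgeR fit of PS19 minus WT was also run on simulated counts, and the outcome is not given here. Those counts were drawn gene by gene, with changed genes shifted alike in all PS19 libraries. They therefore do not cover genes that vary together between libraries. Within groups, chi-square per degree of freedom between libraries was 9 to 109, above sampling noise, so none was taken as a duplicate. Exon lengths were the union of exons in the GENCODE M21 annotation.

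The members, their roles, the pathway list and the marker lists were chosen with earlier results of these data known, so no p-value over a list was computed. Values in every library are given for 16 of the 36 genes fixed by role, for Mx1 and Ifi204, and for any gene called outside PS19 minus WT. The others are given by range or fold change. Of the other pathway genes, up to 4 called per role with the lowest p are named, with Ifnb1, Ifng, Mx2 and a few uncalled genes chosen after their values were seen. Ddx58, Dhx58, Ifit1 and other genes given by range were also named with values known. A result for 1 gene of the pathway list is not reported here.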

Additional observations from a re-analysis of the deposited data

Results flagged for a closer look

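In each group of 5 libraries, the gap between the highest or lowest library and its nearest neighbour was set against the range of the group. A gap above 0.71 of the range was counted, which chance gives in about 1 in 20 groups. Of 144 combinations of a gene and a group 11 were counted, 8 of them in WT and 3 in PS19/C3aR KO.

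PS19/C3aR KO library 1 stood apart from the rest of its group for Stat2 at 52.2 CPM, with the next library at 36.3 CPM, for Oas1a at 1.80 CPM, with the next at 0.885 CPM, and for Bst2 at 13 CPM, with the next at 5.46 CPM. This is the library with the highest interferon score of its group.

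WT library 4 stood apart for 5 genes. It was highest for Irf7 at 1.84 CPM, Ifi202b at 0.537 CPM and Cmpk2 at 21.4 CPM, where the next WT libraries had 1.42, 0.0590 and 19.7 CPM. It was lowest for Ifit3 at 1.79 CPM and Xaf1 at 7.12 CPM, where the next WT libraries had 2.80 and 8.06 CPM. Its differences from the other WT libraries thus ran in both directions.

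In the other WT libraries, Ifnar1 was highest in library 2 at 67.3 CPM, Trim25 was highest in library 1 at 8.73 CPM, and Sp100 was lowest in library 5 at 1.43 CPM.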

How the results depend on the processing

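For PS19 minus WT, where edgeR called 31 of the 36 genes, limma-voom called 20 and edgeR with the Rn45s share as a covariate called 1. Fits that left out 1 library called 20 to 33. In the fit without PS19 library 2 the count was 20, and Usp18, Ifi202b, Ifit1, Ifit2, Oasl1, Oasl2, Isg15, Rsad2, Ifi27, Ifi27l2a and Xaf1 were no longer called. Of the 31 genes 19 were called in each of the 20 such fits, 12 lost the call in at least 1, and all 31 kept their sign. For PS19/C3aR KO minus PS19, where Ifi202b was called, 0 genes were called by limma-voom, without a filter on low counts and with the Rn45s covariate. Fits that left out 1 library called 0 to 1. With the stricter filter, and on the groups of the comparison alone, 0 were called as well. Ifi202b did not pass the filter in those fits, so it could not be called there. For PS19/C3aR KO minus C3aR KO, where 0 were called, DESeq2 called 5, and fits without 1 library called 0 to 2. For C3aR KO minus WT and the interaction, 0 were called in all of these fits. Replicate numbers were not taken to pair the libraries, by a strict rule that every same-number pair have a correlation of deviations above 0.1. Of same-number pairs 16 of 30 did, with a median of 0.14, against 36 of 120 different-number pairs, with a median of -0.042. Same-number pairs thus correlated more by median, and 6 of 20 libraries correlated best with their own number. Whether the numbers mark a shared batch was not tested. With the replicate number as a block, 31 genes were called in PS19 minus WT, 1 in PS19/C3aR KO minus PS19 and 0 in the other comparisons. Over single genes, 5184 of 5339 recomputed values kept their side of the threshold and their direction, 138 were no longer called, 12 became called, 5 uncalled ones moved or changed sign, and 0 called ones changed sign. Depth limits the interferon ligands, Oasl1, Ifi202b and Zbp1, and 5 libraries per genotype that differ strongly within the transgenic groups limit every comparison with them.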
